A study of Mus musculus with 18 samples.

Results

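Retinoid X receptors (RXRs) rarely act alone: they form pairs with other nuclear receptors, and corepressors and coactivators read out the state of the pair. The 9 genes described here are 7 nuclear receptors and 2 coregulators, out of 54532 genes counted: the thyroid hormone receptors Thra and Thrb, the fatty acid sensors Ppara and Ppard, the oxysterol receptors Nr1h2 and Nr1h3, the orphan receptor Nr4a2, the corepressor Ncor1 and the coactivator Ncoa1. They were chosen by name for that role, with earlier results of these data known, and each was measured in CPM, its fragments per 1000000 fragments assigned to genes in the library. Tissue came from the orbital, medial and dorsal parts of the frontal brain of mice at postnatal day 0, either labelled control or carrying mutations in both Rxrg and Rarb ("RXRg, RARb double mutant", dKO below), with 3 libraries in each of 6 groups. The mutated parts of Rxrg and Rarb, the strain, the sex and the number of animals are not stated in the labels, nor whether the control pups carry other alleles or the dKO pups any Cre driver. Nothing says that the libraries came from separate animals, and the p-values below may therefore reflect a spread that is partly technical.

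An RXR and its partner sit side by side on DNA, usually on copies of the hexamer AGGTCA, and the spacing of the copies favours one partner over another. Thyroid hormone receptors hold genes repressed through Ncor1-type corepressors until hormone binds, and then recruit coactivators of the Ncoa family, and this switch is known for its part in the timing of cortical maturation. The receptors encoded by Nr1h2 and Nr1h3 (LXRs) sense oxysterols and drive cholesterol export, PPARs sense fatty acids and drive their oxidation, and Nr4a2 (Nurr1) can pair with RXR in dopaminergic, claustral and deep cortical neurons.

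The libraries held 28957325 to 93093398 assigned fragments. Each title has a prefix, RAR or RXR, and libraries that share the prefix and 1 index form a row of 3 regions. Replicate 1 of each group has the prefix RAR, and replicates 2 and 3 have RXR. Xist and Ddx3y levels gave the dKO rows of replicates 1 and 3 as female and the other 4 rows as male, so sex differed between the genotypes in 2 of 3 replicates. Rarb was lower in the dKO libraries of each region than in every control library of that region, and Rxrg was likewise lower except in orbital tissue, where the dKO library of replicate 1 (2.90 CPM) stood above the control library of replicate 1 (2.35 CPM). Markers of cortical excitatory neurons summed to at least 1480 CPM in every library, which fits the labelled tissue. All 9 genes passed the filter on low counts in every fit.

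Compared per length, in TPM (fragments per base of exon, scaled to 1000000 in each library), the genes spanned a wide range of levels. Thra stood first in all 18 libraries, with 227 to 446 TPM and a median of 301 TPM. Ncoa1 had a median of 54.1 TPM and exceeded Ncor1, with 33.1 TPM, in 15 of 18 libraries. Nr1h2 had a median of 30.9 TPM and could not be ordered against Ncor1, which was higher in 9 of 18 libraries. Nr4a2 followed with a median of 13.2 TPM and Thrb with 4.599 TPM, in that order in 15 of 18 libraries. The lowest levels were those of Nr1h3 (median 1.12 TPM), Ppara (0.998 TPM) and Ppard (0.345 TPM), and Nr1h3 and Ppara could not be ordered, each being higher in 9 of 18 libraries. Within the pairs of related receptors, the TPM of Thra was 34.1 to 164 times that of Thrb, and the TPM of Nr1h2 was 18.5 to 79.4 times that of Nr1h3. Ppara and Ppard differed less, with a median TPM ratio of 2.34 and Ppara higher in 15 of 18 libraries. That ratio differed between genotypes: it was 0.746 to 1.73 in orbital controls and 6.74 to 8.75 in orbital dKO libraries. In medial tissue it was 0.784 to 3.29 in controls and 3.66 to 4.31 in dKO libraries. The genotypes overlapped in dorsal tissue (0.107 to 1.66 and 1.54 to 3.49). In bulk tissue, fewer cells of a type and less RNA per cell cannot be told apart.

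**Figure D1:**
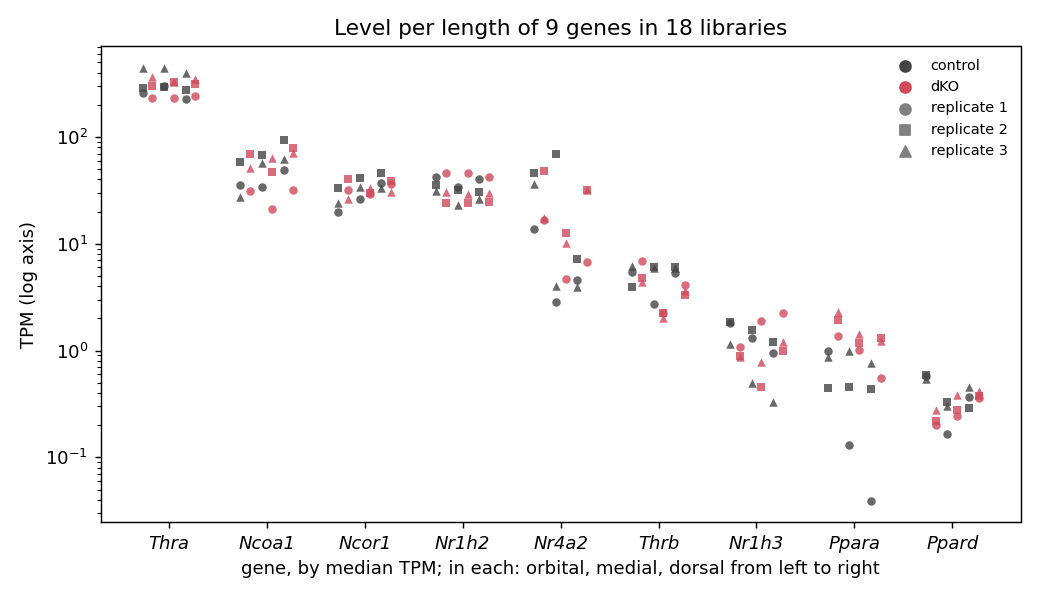
Level of each gene in TPM (log axis) in the 18 libraries, with genes ordered by their median, colours for genotype and symbols for replicate; within each gene the columns are orbital, medial and dorsal tissue. Thra lies above all other genes in every library, between 227 and 446 TPM. By the ratio of its highest to its lowest CPM (79.3 and 3.96), Nr4a2 varies most after Ppara.

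**Figure D2:**
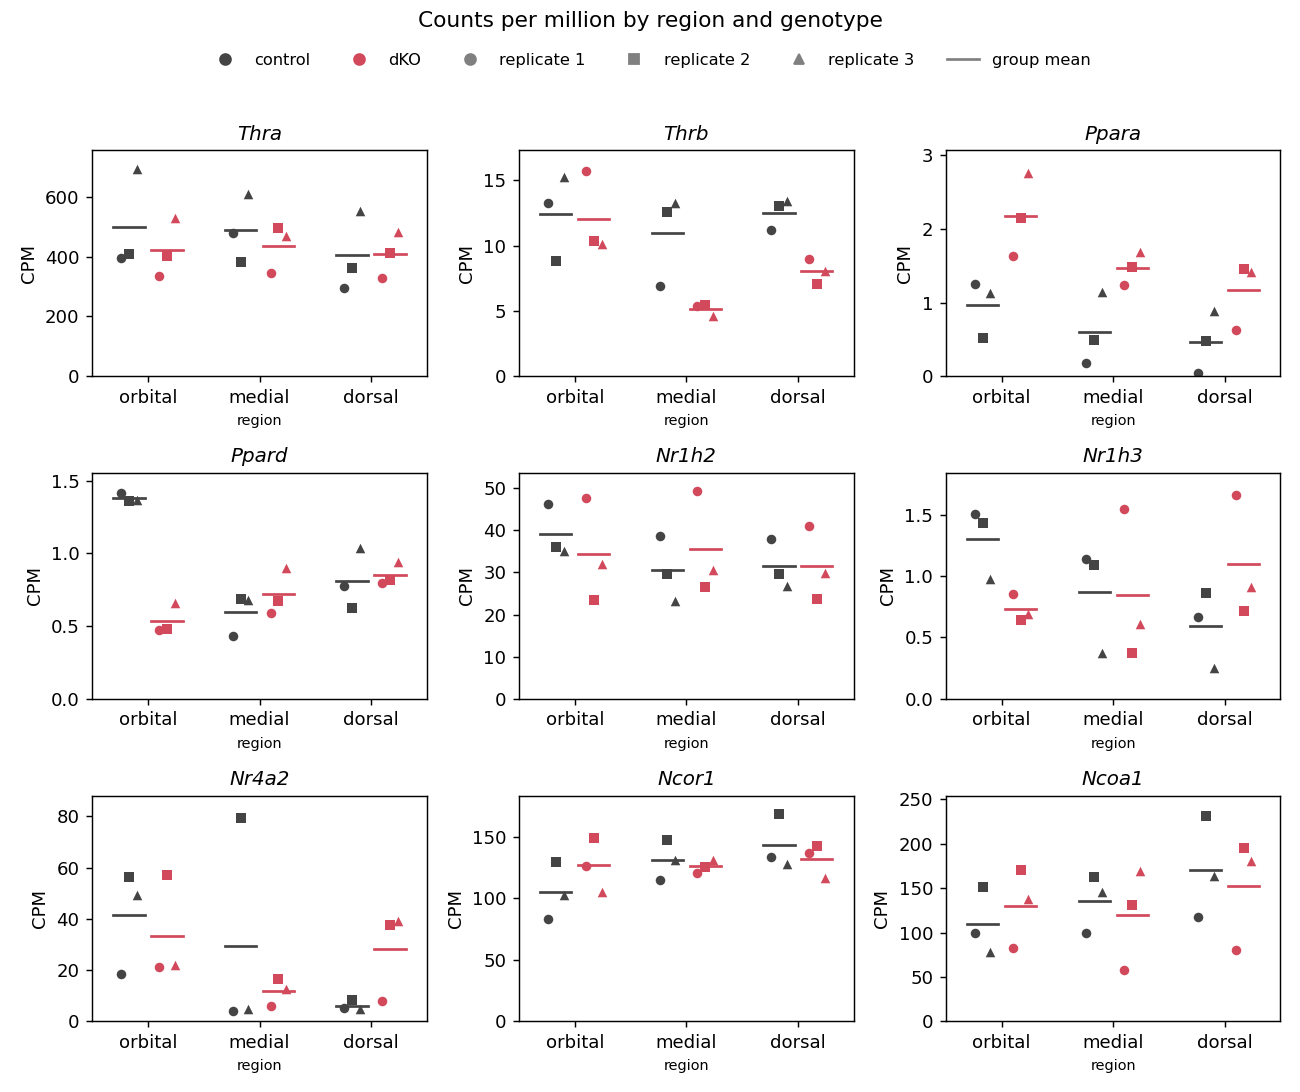
CPM of the 9 genes by region, with 3 libraries per group as points and the group mean as a bar; each panel has its own axis from 0. The 3 medial dKO libraries of Thrb sit between 4.58 and 5.47 CPM, under all 3 medial control libraries, and Nr4a2 has 1 medial control library at 79.3 CPM.

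Thra encodes the thyroid hormone receptor that predominates in brain. In orbital tissue it measured 394, 408 and 692 CPM in the controls (replicates 1, 2 and 3) and 335, 403 and 530 CPM in dKO pups. In medial tissue it measured 477, 381 and 610 CPM in controls and 343, 497 and 468 CPM in dKO pups. In dorsal tissue the controls had 295, 363 and 553 CPM and the dKO libraries 330, 412 and 482 CPM. The control library of replicate 3 was the highest in each region, the genotypes overlapped in all 3, and Thra passed the threshold in no comparison. Its 3′ end on chr11 shares 263 exonic bases (5.7% of its exonic length) with Nr1d1 on the opposite strand, and since fragments were counted without strand, those from the shared stretch cannot be assigned to one gene. Nr1d1 itself, a clock repressor, had group means of 9.88 to 21.5 CPM, far under those of Thra.

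Thrb encodes the second thyroid hormone receptor, on chr14:17660261-18038090 (GRCm38, plus strand), and it was the only one of the 9 genes to pass the test between genotypes. In medial tissue the controls measured 6.93, 12.6 and 13.3 CPM and the dKO libraries 5.35, 5.47 and 4.58 CPM. All 3 dKO libraries lay under all 3 controls, although the control of replicate 1 was close to them. The log2 fold change was -1.16 (SE 0.268, adjusted p = 0.0346, edgeR quasi-likelihood test adjusted over 18730 genes). Of the 9 genes 1 passed, where 2.08% of all tested genes did (221 higher and 168 lower), and 2 of the 9 had groups that did not overlap, where 18.1% of all tested genes did. The call was lost in 11 of 17 alternative analyses. It was lost when any of the 3 dKO rows was left out (adjusted p = 0.121 to 0.18) and without control replicate 2 or control replicate 3 (0.0701 and 0.0783), while the log2 fold change stayed between -1.48 and -1.01. It was also lost with sex as a covariate (-1.25, adjusted p = 0.0831), and within the RXR-prefix libraries the log2 fold change was -1.39 (adjusted p = 0.14).

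The other regions differed less in Thrb. In dorsal tissue the controls had 11.2, 13.02 and 13.4 CPM and the dKO libraries 8.99, 7.07 and 8.07 CPM. Those groups did not overlap either, but the log2 fold change of -0.70 (SE 0.263) did not pass the threshold (adjusted p = 0.598). Orbital tissue had 13.3, 8.83 and 15.3 CPM in controls and 15.8, 10.4 and 10.1 CPM in dKO pups, which overlapped. The dKO effect in medial minus that in orbital tissue was -1.07 (SE 0.334, adjusted p = 0.104), so the difference between the regions did not pass the test either; it passed in DESeq2 (adjusted p = 0.0243) and without control replicate 1 (0.0236). Among the dKO rows themselves, medial tissue was below orbital tissue in all 3 rows, by a log2 difference of -1.22 (SE 0.24, adjusted p = 0.137). The TPM of Thra was 103 to 164 times that of Thrb in medial dKO libraries and 48.5 to 111 times in medial control libraries.

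RefSeq (GRCm38.p6) lists promoter windows, 250 bases before to 50 after a start, for 8 of the 9 genes, 11 windows in all. Those of Thrb are shown because that gene passed the test between genotypes and has a pair of starts, and that of Nr4a2 because its level differed most between regions. Capitals mark AGGTCA, searched on both strands. The hexamer occurred in 1 of the 11 windows, the upstream one of Thrb, starting 184 bases before the start on the plus strand, and in 16.3% of the 32851 RefSeq promoters of the same length.
Thrb, chr14:17660710-17661009, plus strand: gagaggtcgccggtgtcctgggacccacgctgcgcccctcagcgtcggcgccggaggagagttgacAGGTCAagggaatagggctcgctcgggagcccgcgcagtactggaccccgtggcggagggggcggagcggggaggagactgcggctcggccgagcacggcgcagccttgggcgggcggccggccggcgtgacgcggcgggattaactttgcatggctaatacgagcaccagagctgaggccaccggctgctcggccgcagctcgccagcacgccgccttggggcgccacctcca
Thrb, chr14:17981394-17981693, plus strand: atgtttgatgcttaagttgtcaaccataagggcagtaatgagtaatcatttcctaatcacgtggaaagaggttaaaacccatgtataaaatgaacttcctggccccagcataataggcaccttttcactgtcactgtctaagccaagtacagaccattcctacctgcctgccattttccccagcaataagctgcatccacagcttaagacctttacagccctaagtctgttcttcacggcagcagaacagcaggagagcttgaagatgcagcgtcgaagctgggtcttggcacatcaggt
Nr4a2, chr2:57123954-57124253, minus strand: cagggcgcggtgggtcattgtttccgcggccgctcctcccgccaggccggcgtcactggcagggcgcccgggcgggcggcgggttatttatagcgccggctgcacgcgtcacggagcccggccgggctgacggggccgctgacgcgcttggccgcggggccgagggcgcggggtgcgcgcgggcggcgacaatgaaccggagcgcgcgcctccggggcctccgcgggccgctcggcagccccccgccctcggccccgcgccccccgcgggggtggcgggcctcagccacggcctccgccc
The Nr4a2 monomer motif AAAGGTCA was in 0 of the 11 windows and in 1.51% of all promoters. Direct repeats of the hexamer spaced by 1 to 5 bases were in 0 of the 11 windows and in at most 0.0396% of all promoters for any spacing. The upstream Thrb window and that of Nr4a2 were rich in G and C (72.7% and 81.7%), and the downstream Thrb window was not (46%). A match is a description of letters and not a site.

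Thrb lies near one of the mutated genes: it starts 841 kb beyond the end of Rarb on the same chromosome, with 4 genes between them. The gene whose log2 CPM followed Thrb most closely over the 18 libraries was Lrrc3b (Pearson r = 0.847), ahead of Prss12 (0.844) and Myc (0.813), from 11095 genes compared. These points share library depth, row and title prefix. Lrrc3b lies 992 kb from Rarb on the side away from Thrb. In medial tissue Lrrc3b had 9.76, 15.9 and 16.2 CPM in controls and 6.38, 5.41 and 5.91 CPM in dKO pups, with no overlap, and a log2 fold change of -1.30 (SE 0.307, adjusted p = 0.0379). Its dorsal and orbital log2 fold changes were -0.29 (SE 0.301, adjusted p = 0.921) and -0.10 (SE 0.3, adjusted p = 0.917). Rarb, the mutated receptor gene that lies between Thrb and Lrrc3b, had 3.50, 4.74 and 4.998 CPM in medial controls and 2.96, 1.42 and 1.19 CPM in medial dKO libraries (log2 fold change -1.37, SE 0.372, adjusted p = 0.0686). Of the 5 neighbours listed for the Thrb and Thra loci (Nr1d1, Nr1d2, Top2b, Ngly1 and Oxsm), 0 passed between genotypes in medial tissue by edgeR, 1 with an unadjusted p under 0.05 (Nr1d2, 0.75, SE 0.265, adjusted p = 0.165), and the next was Top2b (-0.27, SE 0.223, adjusted p = 0.65). The part of position in the lower Thrb and Lrrc3b was not tested.

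**Figure D3:**
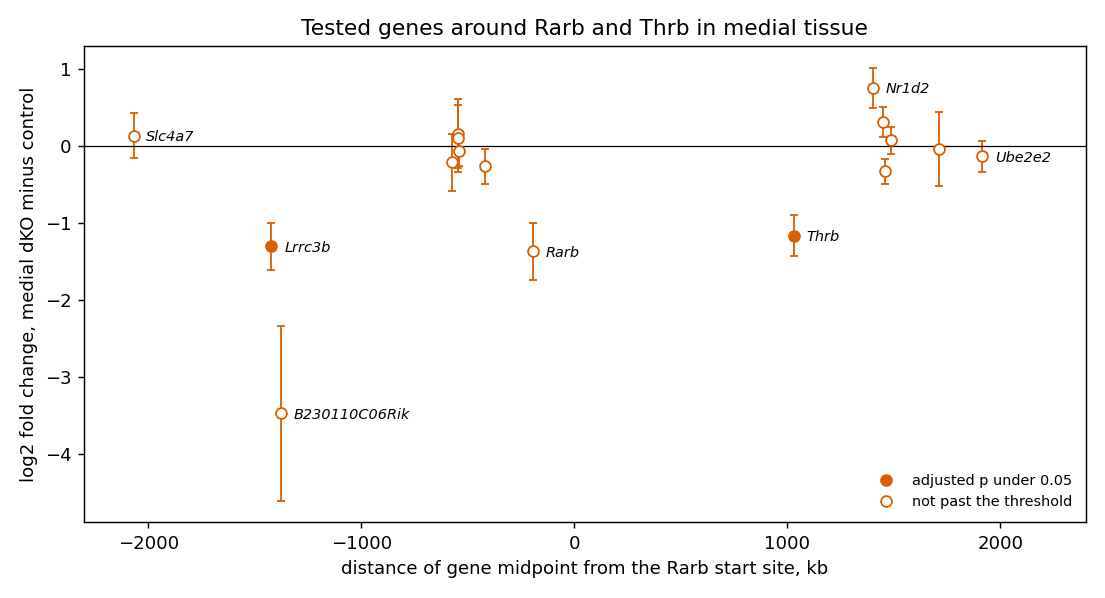
Log2 fold change in medial tissue (dKO minus control, bars: standard error) of the tested genes around Rarb and Thrb, by distance of the gene's midpoint from the Rarb start site in kb; filled points passed the threshold. Lrrc3b (-1.30) and Thrb (-1.16) passed on either side of Rarb (-1.37, adjusted p = 0.0686), and the genes next to them lie nearer 0 apart from B230110C06Rik (-3.48, SE 1.13, adjusted p = 0.132).

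Levels of cell type markers also differed between genotypes in the same medial libraries, where 2.08% of all tested genes passed in either direction. Of the cell cycle markers 5 of 6 rose in medial dKO tissue (Mki67 by 1.77 and Cdk1 by 1.37 on the log2 scale). Their summed levels were 57.7 to 89.8 CPM in controls and 184 to 325 CPM in dKO libraries. The rise was not particular to medial tissue: orbital sums did not overlap either (82.2 to 130.9 CPM and 149.5 to 244.9 CPM). Dorsal sums overlapped (51.4 to 139.8 CPM and 121.8 to 162.9 CPM). Of the progenitor markers 4 of 7 rose (Pax6 by 2.46, Vim by 0.82), with sums of 154 to 178 CPM against 304 to 444 CPM. Of the claustrum markers 2 of 4 fell (Gnb4 by 0.68, and Oprk1, which had no fragment in the 3 dKO libraries), with sums of 195 to 246 CPM against 138 to 167 CPM. Eomes was at 0 in at least 1 medial control library. Of the astrocyte markers 1 of 5 rose (Aldoc by 1.22), with sums of 282 to 568 CPM in controls and 668 to 1066 CPM in dKO libraries, which did not overlap. In the excitatory neuron list 0 of 6 markers passed by edgeR (2 with an unadjusted p under 0.05). Interneuron marker sums were higher without overlap (298 to 402 CPM in controls and 406 to 437 CPM in dKO libraries). So were sums of subplate and layer 6b markers, by a narrow margin (71.3 to 150.4 CPM and 150.6 to 204 CPM). The part of these shifts in the Thrb difference was not tested.

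Genes around thyroid hormone signalling did not pass between genotypes. Of 8 genes for hormone transport and conversion, 0 passed in orbital, medial, dorsal or summed tissue by edgeR, with 2, 0, 1 and 1 at an unadjusted p under 0.05, where 13.9%, 15%, 6.78% and 9.03% of all tested genes had one. Their summed level did not overlap between genotypes in orbital tissue (390 to 448 CPM in controls and 535 to 609 CPM in dKO libraries) or in medial tissue (442 to 529 CPM and 573 to 649 CPM), and overlapped in dorsal tissue (440 to 518 CPM and 506.1 to 645 CPM). Slc7a5, an amino acid and hormone transporter, made up the larger share of the sum, with group means of 255 CPM in orbital controls and 396 CPM in orbital dKO tissue. The lowest p in orbital tissue belonged to Slc7a5 (0.64, SE 0.158, adjusted p = 0.148), and to the inactivating deiodinase Dio3 (2.87, SE 1.18, adjusted p = 0.293). Dio3 was barely detected there, with 0 to 0.425 CPM in controls and 0.578 to 1.03 CPM in dKO libraries. Of 9 thyroid hormone responsive genes 0 passed in each of these comparisons, with 0, 3, 2 and 0 at an unadjusted p under 0.05. In medial tissue the lowest p were those of the kinase gene Camk4 (-0.95, SE 0.257, adjusted p = 0.0667) and the transcription factor Klf9 (0.74, SE 0.286, adjusted p = 0.217), in opposite directions. The median log2 fold change of the responsive genes in medial tissue was -0.09, beside -0.00426 over all genes.

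Ppara, the fatty acid receptor that drives oxidation in liver and glia, was measured from few fragments, 3 to 115 per library. In orbital tissue it had 1.25, 0.519 and 1.12 CPM in controls and 1.63, 2.15 and 2.76 CPM in dKO pups. In medial tissue it had 0.172, 0.488 and 1.15 CPM in controls and 1.24, 1.49 and 1.68 CPM in dKO pups. Dorsal tissue had 0.0425, 0.483 and 0.882 CPM in controls and 0.628, 1.46 and 1.41 CPM in dKO pups. The dKO libraries were above all controls in orbital and medial tissue and overlapped in dorsal tissue, where the dKO library of replicate 1 fell below the highest control. The log2 fold changes were 0.94 (SE 0.647, adjusted p = 0.54), 1.44 (SE 0.667, adjusted p = 0.321) and 1.47 (SE 0.68, adjusted p = 0.732), so none passed. With the regions of a row summed it was 1.13 (SE 0.368, adjusted p = 0.437), and with Thrb (-0.58, SE 0.21, adjusted p = 0.488) this was one of 2 genes of the 9 at an unadjusted p under 0.05, where 9.03% of all tested genes had one. The medial astrocyte marker sums given above were likewise higher in all dKO libraries than in all controls. In orbital tissue the astrocyte sums overlapped between genotypes (568 to 850 CPM in controls and 520 to 820 CPM in dKO libraries). They also overlapped in dorsal tissue (471 to 618 CPM and 472 to 596 CPM). The part of astrocytes in the Ppara levels was not tested. Of the 9 genes 0 passed in the summed fit by edgeR, DESeq2 or limma-voom, where 0.0249% of all tested genes did.

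Ppard, the more widely expressed PPAR, differed between genotypes in orbital tissue in level but not past the threshold. The orbital controls had 1.42, 1.36 and 1.37 CPM and the dKO libraries 0.474, 0.482 and 0.658 CPM. The groups were far apart and the controls were nearly identical, on 15 to 130 fragments per library. The log2 fold change was -1.38 (SE 0.379, adjusted p = 0.162 by edgeR, and 0.022 by DESeq2). Medial tissue had 0.43, 0.689 and 0.683 CPM in controls and 0.593, 0.676 and 0.898 CPM in dKO pups, and dorsal tissue 0.779, 0.622 and 1.04 CPM against 0.797, 0.817 and 0.942 CPM. Both overlapped. The dKO effect in medial minus that in orbital tissue was 1.57 (SE 0.531, adjusted p = 0.124). In orbital tissue 0 of the 9 genes passed by edgeR, where 0.0374% of all tested genes did, 1 had an unadjusted p under 0.05 (Ppard, where 13.9% of all tested genes had one), DESeq2 called 1 (Ppard) and limma-voom 0; the second lowest p was that of Ncor1 (0.28, SE 0.156, adjusted p = 0.428). The groups did not overlap for 3 of the 9 genes (Ppara, Ppard and Nr1h3), where they did not overlap for 14% of all tested genes.

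Of 12 PPAR target genes, most of them enzymes of fatty acid oxidation, 0 passed between genotypes in any region or in the summed fit by edgeR, with 5, 3, 3 and 6 at an unadjusted p under 0.05 in orbital, medial, dorsal and summed tissue, beside the shares of all tested genes given above (13.9%, 15%, 6.78% and 9.03%). In orbital tissue 11 of the 12 had a negative log2 fold change, with a median of -0.52 beside -0.03 over all genes, and their sum was 523 to 743 CPM in controls and 386 to 485 CPM in dKO libraries, without overlap. Microglia markers were lower in the same orbital libraries, with sums of 237 to 283 CPM in controls and 124 to 204 CPM in dKO libraries, and so were meningeal markers, with 1303 to 1688 CPM and 642 to 1143 CPM. Neither list overlapped between genotypes, all 7 and all 6 markers had a negative log2 fold change, 0 of each list passed by edgeR, and 4 of 7 and 0 of 6 had an unadjusted p under 0.05. Their part in the orbital target levels was not tested. Plin2, a lipid droplet coat protein, had -0.93 (SE 0.213, adjusted p = 0.136) and Acadm -0.75 (SE 0.199, adjusted p = 0.155). Pdk4, a kinase that restrains glucose oxidation, had 1.67 (SE 0.504, adjusted p = 0.0998) in medial tissue.

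The same targets differed between regions of control pups. Orbital tissue was higher than dorsal tissue for 7 of 12 (among them Angptl4 by 1.51, Ehhadh by 1.46, Acadm by 0.76, Cpt2 by 0.69, Acadl by 0.67 and Plin2 by 0.51 on the log2 scale), where 15.8% of all tested genes passed in either direction. The list had a median of 0.68 beside 0.03 over all genes. Medial tissue was lower than orbital tissue for 6 of the 12, where 9.02% of all tested genes passed in either direction. The targets had a median of -0.51 there, beside 0.01 over all genes. Their summed level was 523 to 743 CPM in orbital controls, 331 to 586 CPM in medial controls and 374 to 436 CPM in dorsal controls. Microglia markers moved with them: 5 of 7 were higher in orbital than dorsal controls, with sums of 237 to 283 CPM against 115 to 134 CPM. So did meningeal markers, with 3 of 6 higher and sums of 1303 to 1688 CPM against 632 to 804 CPM. Their part in the target levels was not tested. Ppara and Ppard themselves did not pass from orbital to dorsal controls (adjusted p = 0.155 and 0.235), although Ppard was higher in orbital than dorsal tissue in all 3 control rows, by 0.83, 1.08 and 0.38 in log2 CPM.

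Nr1h2, the LXR found in most tissues, varied little. Orbital tissue had 46.3, 36.1 and 35.1 CPM in controls and 47.6, 23.6 and 32.1 CPM in dKO pups. Medial tissue had 38.7, 29.6 and 23.1 CPM against 49.2, 26.6 and 30.5 CPM, and dorsal tissue 37.9, 29.7 and 26.7 CPM against 41.0, 23.7 and 29.7 CPM. The library of replicate 1 was the highest in all 6 groups, and the genotypes overlapped in every region. Nr1h3, the LXR of macrophages and liver, was measured from 8 to 138 fragments per library. It had 1.503, 1.43 and 0.972 CPM in orbital controls and 0.852, 0.643 and 0.69 CPM in orbital dKO libraries, without overlap. The microglia marker sums given above were lower in the same orbital dKO libraries, also without overlap, and their part in the Nr1h3 levels was not tested. In dorsal tissue it had 0.665, 0.863 and 0.252 CPM in controls and 1.66, 0.715 and 0.911 CPM in dKO pups, and in medial tissue 1.14, 1.09 and 0.373 CPM against 1.55, 0.372 and 0.609 CPM, both with overlap. The dKO effect in orbital minus that in dorsal tissue was -1.70 (SE 0.585, adjusted p = 0.274), and in medial minus that in dorsal tissue -1.06 (SE 0.581, adjusted p = 1). Over the 18 libraries the log2 CPM of Nr1h2 and Nr1h3 had a Pearson r of 0.71, on points that share row, depth and title prefix. The library of replicate 1, which has the prefix RAR, was also the highest for Nr1h3 in each group except dorsal controls. The r was not adjusted for prefix.

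Of 10 LXR target genes, 2 rose in medial dKO tissue and 0 fell, where 2.08% of all tested genes passed in either direction. Smpdl3a, a phosphodiesterase, rose by 1.27 (SE 0.206, adjusted p = 0.00584) and Srebf1, the regulator of fatty acid synthesis, by 1.56 (SE 0.264, adjusted p = 0.00753). The median of the 10 was 0.44 beside -0.00426 over all genes. In orbital, dorsal and summed tissue 0 of 10 passed by edgeR, with 2, 2 and 4 at an unadjusted p under 0.05. Abcg1 passed in no region, yet every dKO library exceeded every control of its region. The lowest dKO and highest control library held 10.7 and 9.66 CPM (orbital), 10.8 and 9.03 CPM (medial), and 11.5 and 8.44 CPM (dorsal). Abca1 also had higher dKO means in each region, with overlapping libraries. Lower dKO means were seen for Fasn and Scd2 in medial and dorsal tissue, and for Apoe, Lpcat3 and Smpdl3a in orbital tissue. Of these, the means were nearly equal for Scd2 in medial tissue (1101 CPM in controls and 1093 CPM in dKO libraries). The same held for Smpdl3a in orbital tissue (36.8 and 35.5 CPM). The summed cell cycle, progenitor and astrocyte markers described above were higher in the medial dKO libraries, and their part in the LXR target levels was not tested. Among control regions, Apoe, the main lipid carrier of brain, was 1.21 higher in orbital than dorsal tissue (SE 0.158, adjusted p = 0.0012), Smpdl3a and Lpcat3 were also higher, and Fasn was lower by 1.45 (SE 0.324, adjusted p = 0.0105). Apoe, Smpdl3a, Lpcat3 and Srebf1 were lower in medial than orbital controls.

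Nr4a2, on chr2:57106830-57124003 (minus strand), ranged from 3.96 to 79.3 CPM. Orbital controls had 18.4, 56.3 and 49.5 CPM, medial controls 3.96, 79.3 and 4.91 CPM, and dorsal controls 5.21, 8.46 and 4.88 CPM. Orbital tissue was above dorsal tissue in every control row, by 1.81, 2.73 and 3.33 in log2 CPM, and the groups did not overlap. The log2 fold change from dorsal to orbital controls was 2.52 (SE 0.644, adjusted p = 0.0185). The call was lost without control replicate 3 (2.04, adjusted p = 0.0976). Medial controls stood apart by 1 library, that of replicate 2, and no pair with medial tissue passed in controls. Compared with medial tissue, orbital controls were higher in replicates 1 and 3 and lower in replicate 2.

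In dKO pups the orbital libraries had 21.0, 57.2 and 22.04 CPM of Nr4a2, the medial ones 6.14, 16.6 and 12.8 CPM and the dorsal ones 8.04, 37.5 and 39.1 CPM. Dorsal dKO libraries of replicates 2 and 3 were well above all dorsal controls, and that of replicate 1 was within their range. The dorsal difference between genotypes was 1.76 (SE 0.724, adjusted p = 0.651). In dorsal tissue 0 of the 9 genes passed by edgeR, DESeq2 or limma-voom, where 0.0214% of all tested genes did by edgeR, and 3 had an unadjusted p under 0.05 (Thrb, Nr4a2 and Ppara), where 6.78% of all tested genes had one. The groups did not overlap in dorsal tissue for 1 of the 9 (Thrb), where they did not for 10.1% of all tested genes. The dKO effect on Nr4a2 in medial minus that in dorsal tissue was -2.35 (SE 0.912, adjusted p = 0.864), and without the medial control library of replicate 2 it was -0.94 (adjusted p = 1).

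Lists of markers for the cells in which Nr4a2 is known were compared over the same groups. Beside the counts of markers below, 15.8% of all tested genes passed from dorsal to orbital controls in either direction. From dorsal to orbital controls 1 of 4 claustrum markers rose (Synpr by 0.83), with sums of 165 to 237 CPM in dorsal and 204 to 286 CPM in orbital tissue, and Oprk1 was at 0 in at least 1 dorsal control library. Of the subplate and layer 6b markers 1 of 6 rose (Lpar1 by 0.97), with sums of 106 to 146 CPM and 171 to 305 CPM. Of the dopaminergic markers 1 of 3 rose, Th, the enzyme of dopamine synthesis, with 0 to 0.0691 CPM in dorsal and 1.85 to 2.34 CPM in orbital controls, and the 3 summed to 8.98 to 9.73 CPM and 11.9 to 16.4 CPM. Of 10 immediate early genes tested, a group to which Nr4a2 also belongs, 0 passed by edgeR (3 with an unadjusted p under 0.05, where 30.2% of all tested genes had one). The medial control library with 79.3 CPM of Nr4a2 had 246 CPM of claustrum markers, beside 195 and 209 CPM in the other two medial controls, and 148 CPM of subplate markers, beside 71.3 and 150.4 CPM. The claustrum sum rests mostly on Gnb4 (mean 175 CPM in medial controls). The subplate sum rests mostly on Lpar1 and Ccn2 (59.2 and 37.5 CPM). Lower markers count little in these sums and differed more among the medial controls. Oprk1 ranged from 0.204 to 1.84 CPM, Cplx3 from 0.193 to 3.65 CPM and Nxph4 from 5.39 to 12.1 CPM. The part of all these markers in the Nr4a2 levels was not tested. The genes most like Nr4a2 over the 18 libraries were Jdp2 (r = 0.678), Bri3bp (0.671) and Xiap (0.669).

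Ncor1, the corepressor that holds unliganded receptors silent, was lower in orbital than in dorsal tissue of controls. Orbital controls had 83.4, 129 and 103 CPM, medial controls 115, 148 and 131 CPM and dorsal controls 134, 169 and 128 CPM. The orbital and dorsal groups overlapped, but within each row orbital was below dorsal, by -0.68, -0.38 and -0.32 in log2 CPM. The log2 fold change from dorsal to orbital controls was -0.57 (SE 0.115, adjusted p = 0.00708), and from orbital to medial controls 0.40 (SE 0.115, adjusted p = 0.0443). The first call was lost without control replicate 1 (-0.47, adjusted p = 0.0522) and the second without any single control row (adjusted p = 0.138 to 0.156), without dKO replicate 1 (0.102) and without dKO replicate 2 (0.0614). Within the RXR-prefix libraries they were -0.47 (adjusted p = 0.104) and 0.35 (0.235).

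Ncoa1, a coactivator that binds hormone-loaded receptors, had the same order of group means over the regions. Orbital controls had 100.1, 151 and 78.5 CPM, medial controls 99.4, 163 and 146 CPM and dorsal controls 118, 231 and 163 CPM. Orbital was below dorsal in each row, by -0.23, -0.61 and -1.06 in log2 CPM, while the groups overlapped. The log2 fold change was -0.73 (SE 0.17, adjusted p = 0.0126). It was lost without control replicate 2 (-0.71, adjusted p = 0.0776) or control replicate 3 (-0.54, adjusted p = 0.102), and within the RXR-prefix libraries it was -0.94 (adjusted p = 0.0286).

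With Nr4a2, Ncor1 and Ncoa1, 3 of the 9 genes passed from dorsal to orbital controls, 1 higher and 2 lower, where 15.8% of all tested genes did (1196 higher and 1769 lower). The groups did not overlap for 3 of 9 (Ppard, Nr1h3 and Nr4a2), where they did not for 19.6% of all tested genes. From orbital to medial controls 1 of 9 passed, where 9.02% of all tested genes did, and the groups did not overlap for 1 (Ppard), where they did not for 12.8%. Ppard had the second lowest p there, with -1.16 (SE 0.371, adjusted p = 0.0669), and was lower in medial tissue in all 3 control rows. From dorsal to medial controls 0 of 9 passed by edgeR, DESeq2 or limma-voom, where 0.491% of all tested genes did by edgeR, 1 had an unadjusted p under 0.05, where 9.36% of all tested genes had one (Thra, 0.27, SE 0.124, adjusted p = 0.531, followed by Ncoa1, -0.34, SE 0.169, adjusted p = 0.57), and the groups overlapped for all 9, where they did not for 7.42% of all tested genes. These 3 comparisons share their libraries in pairs.

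**Figure D4:**
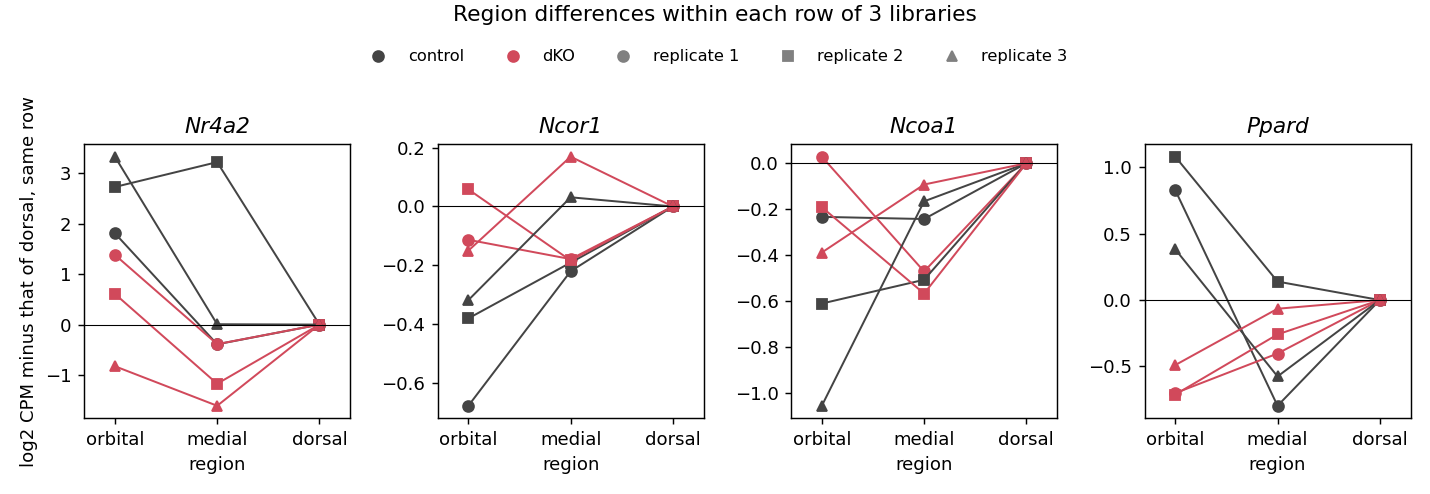
Log2 CPM of Nr4a2, Ncor1, Ncoa1 and Ppard in each region minus that of dorsal tissue in the same row, with 1 line per row, colours for genotype and symbols for replicate. In the 3 control rows Nr4a2 and Ppard are above and Ncor1 and Ncoa1 below 0 in orbital tissue, and the dKO rows lie nearer 0 for Ncor1 and on the other side of 0 for Ppard.

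Some other coregulators fell from dorsal to orbital controls as well: 6 of 15 were lower and 0 higher, where 15.8% of all tested genes passed in either direction. Among the 6 were Tbl1xr1 (-0.82) and Tbl1x (-0.52), which belong to the Ncor1 complex, the coactivators Ncoa2 (-0.95) and Ncoa6 (-0.72), and the acetyltransferase Ep300 (-0.94). Hdac3 and Gps2, also of that complex, had higher means in orbital (237.5 and 35.6 CPM) than dorsal controls (193 and 29.5 CPM), without passing. The median log2 fold change of the 15 was -0.35 beside 0.03 over all genes. Tbl1xr1 was higher in medial than orbital controls (0.71, adjusted p = 0.028). Both Ncor1 and Ncoa1 are long, with 12811 and 8576 exonic bases, and all genes with over 8000 exonic bases had a median log2 fold change of -0.32 from dorsal to orbital controls, with 29.8% of these 2648 genes called lower, beside 0.08 and 6.09% for the other 16082 genes. That limit was chosen after the values were seen. Tbl1xr1, Ncoa2, Ncoa6 and Ep300 were also over it, and Tbl1x, Hdac3 and Gps2 were not. Among the genes most like Ncor1 over the 18 libraries were Tulp4 (r = 0.932) and Phf3 (0.913), and those most like Ncoa1 were Cacna1a (0.932), Zswim5 (0.923) and Dscam (0.915). The part of transcript length in the lower Ncor1, Ncoa1 and other coregulators was not tested.

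In dKO pups Ncor1 measured 127, 149 and 105 CPM in orbital, 121, 126 and 131 CPM in medial and 137, 143 and 116 CPM in dorsal tissue. Ncoa1 measured 82.3, 171 and 138 CPM, 58.2, 131 and 169 CPM, and 80.7, 195 and 180 CPM in the same order of regions. Neither differed between regions past the threshold: 0 of 9 genes passed from dorsal to orbital dKO tissue, from dorsal to medial or from orbital to medial by edgeR, where 0.486%, 2.09% and 0.016% of all tested genes did. At an unadjusted p under 0.05 there were 1, 2 and 2 of the 9, where 7.26%, 17.8% and 7.29% of all tested genes had one. DESeq2 called 0, 0 and 1 (Thrb), and limma-voom called 0 in each. From dorsal to orbital dKO tissue the lowest p were those of Thrb (0.51, SE 0.234, adjusted p = 0.673) and Ppard (-0.73, SE 0.377, adjusted p = 0.763). From dorsal to medial tissue they were those of Thrb (-0.71, SE 0.239, adjusted p = 0.142) and Ncoa1 (-0.43, SE 0.169, adjusted p = 0.204), and from orbital to medial tissue, after Thrb, that of Nr4a2 (-1.53, SE 0.613, adjusted p = 0.646).

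Whether the dKO effect differed between regions was tested directly. Of the 9 genes 0 passed for orbital against dorsal, medial against dorsal or medial against orbital tissue by edgeR, where 0%, 0% and 1.47% of all tested genes did. At an unadjusted p under 0.05 there were 4, 1 and 4 of the 9, where 12.6%, 5.17% and 20.6% of all tested genes had one. By the other tools, limma-voom called 0 in each and DESeq2 0, 0 and 1 (Thrb). For orbital against dorsal tissue the second lowest p was that of Ncor1 (0.45, SE 0.163, adjusted p = 0.287). So the lower Ncor1 of orbital controls, with no such call in dKO pups, was not shown to differ between the genotypes.

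**Figure D5:**
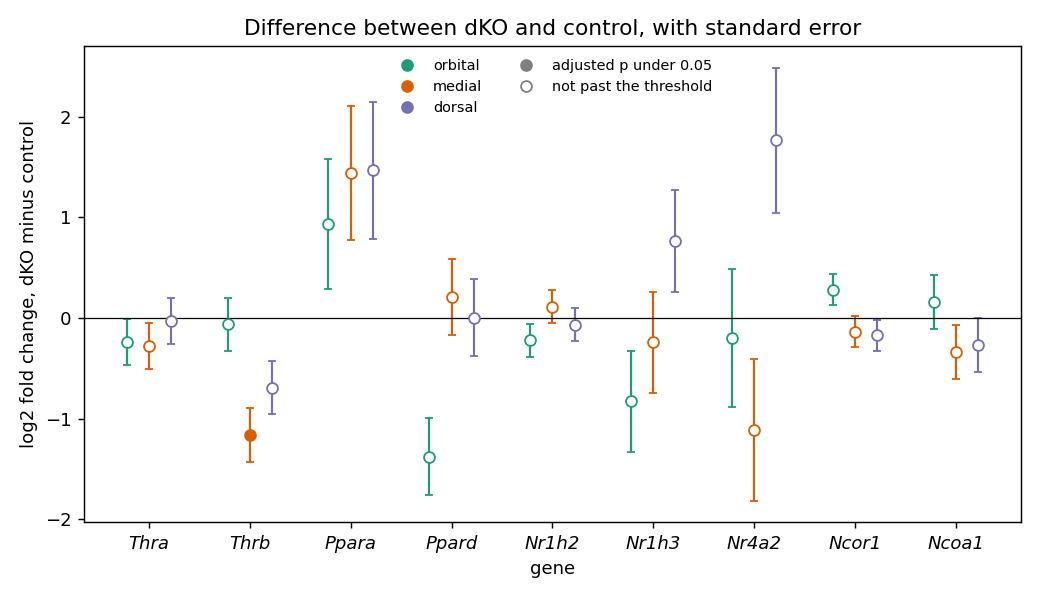
Log2 fold change between dKO and control for each gene in orbital, medial and dorsal tissue (bars: standard error); filled points passed the threshold of an adjusted p under 0.05. Thrb in medial tissue is the single filled point (-1.16), Ppara lies above 0 in all 3 regions without passing, and Ppard lies low in orbital tissue (-1.38).

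Across the 3 regions and the summed fit, the median log2 fold change of the 9 genes between genotypes was -0.20 in orbital, -0.24 in medial, -0.03 in dorsal and -0.15 in summed tissue, beside -0.03, -0.00426, -0.01 and -0.03 over all genes. Thra, Nr1h2 and Ncor1 had absolute log2 fold changes of at most 0.28 in each region. Among the retinoid receptors, which include the mutated Rxrg and Rarb, 0 of 6 passed between genotypes by edgeR. An unadjusted p under 0.05 was found for 3, 1, 2 and 3 of them, where 13.9%, 15%, 6.78% and 9.03% of all tested genes had one. These counts therefore do not describe the unmutated receptors alone. The remaining RXR partners (Nr1h4, Vdr, Pparg, Nr1i2, Nr1i3 and Nr4a1) were too low to test for 2 of 6 in the regions. Of the 4 tested, 0 passed by edgeR, with 0, 1 and 0 at an unadjusted p under 0.05. Among control regions, Rarb (0.80, SE 0.246, adjusted p = 0.0415) and Rxra (0.73, SE 0.226, adjusted p = 0.0431) were higher in orbital than dorsal tissue, and Crym, which binds thyroid hormone in the cytosol, was higher in orbital (1.48, SE 0.348, adjusted p = 0.0128) and medial tissue (2.70, SE 0.351, adjusted p = 0.00545) than in dorsal tissue.

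The genes most like the remaining receptors were Deaf1 (r = 0.944), Bloc1s6 (0.936) and Arpc5 (0.929) for Thra, Mt1 (0.89), Mocs1 (0.87) and Ggact (0.847) for Ppara, and Prelp (0.812), Surf4 (0.793) and Mgll (0.792) for Ppard. For Nr1h2 they were Tspan31 (0.937), Acaa1a (0.924) and Slc25a17 (0.916), and for Nr1h3 Hars2 (0.838), Gtf2h4 (0.828) and Utp23 (0.825). Each r describes 18 libraries that share rows, depth and title prefix, is not adjusted for prefix and carries no test.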

How the data were processed

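Per the file headers, the deposited values are unnormalized counts (fragments per gene), which the authors made with featureCounts 1.6.2 in pairs and without strand on Ensembl gene models of GRCm38; per the submitters' processing notes the aligner was STAR 2.6. Low-input whole-transcript cDNA of 18 libraries was sequenced. Of the columns of values, 18 matched a sample and 6 were not read. Symbols were found for 54409 of 54532 genes.

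Counts were tested in R 4.3.3 with edgeR 4.0.16 (TMM, filterByExpr with a minimum count of 10 and total of 15, quasi-likelihood F tests, Benjamini-Hochberg over all genes tested, threshold 0.05). Genotypes were compared within regions (18730 genes, title prefix as covariate) and in row sums (20083 genes). In the first of these the 3 libraries of a row count as independent. Region differences used the row as a block. DESeq2 1.42.0, limma 3.58.1 and other scalings, filters and covariates were alternatives. The tests were checked on simulated data, drawn independently for each library and without row effects. That check cannot show how the tests behave where the libraries of a row resemble each other. CPM used the total assigned fragments, and TPM the exonic length. The members and lists were chosen with earlier results of these data known. All 9 members are given in every library, with fold change, SE and adjusted p for those past the threshold or, with fewer than 2, the 2 of lowest p. Some genes of the lists and of the likeness rule are not reported here.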

Additional observations from a re-analysis of the deposited data

How the results depend on the processing

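Depth limits Ppara (3 fragments in its lowest library), Nr1h3 (8) and Ppard (15). Signs were followed under the alternatives for members past the threshold or, with fewer than 2, the 2 of lowest p in each comparison. None of these turned. The signs of other genes named above were not followed. For the 9 genes, the count passing between genotypes in medial tissue was 1, and 0 with limma-voom, with sex as a covariate, with the spread of the region's own libraries, at a threshold of 0.01 and in the RXR-prefix libraries; leaving out rows gave 0 to 1. The RXR-prefix libraries and the fits without the medial control library of replicate 2 were added after seeing the data. In orbital tissue the count between genotypes was 0, and 1 with DESeq2. From dorsal to orbital controls it was 3, and 1 at a threshold of 0.01, 0 with no row block and 1 to 3 without single rows. From orbital to medial controls it was 1, and 2 with no filter, 3 with DESeq2, 2 with limma-voom, 0 at 0.01, 0 with no row block, 0 in the RXR-prefix libraries, and 0 to 1 without single rows. In dKO pups it was 1 from dorsal to medial and 2 from orbital to medial tissue with no filter, 1 from orbital to medial with DESeq2, and 0 to 1 without single rows. For the difference of the dKO effect it was 1 in each pair of regions with no filter, 1 for medial against orbital with DESeq2, and 0 to 1 without single rows there. The cause of these shifts was not tested, apart from the fewer samples of the leave-outs. With the replicate number as a replicate block, which the labels do not give as a pairing, Thrb in medial tissue kept its call (-1.16, adjusted p = 0.0236). The number of all genes called moved more: between genotypes from 7 to between 2 and 789 in orbital, from 389 to between 19 and 1120 in medial, from 4 to between 2 and 62 in dorsal and from 5 to between 3 and 359 in summed tissue; from dorsal to orbital controls from 2965 to between 326 and 4128, from dorsal to medial from 92 to between 1 and 356, and from orbital to medial from 1690 to between 0 and 2897. In dKO pups the same pairs gave 91 (4 to 339), 392 (29 to 1299) and 3 (0 to 197), and the differences of the dKO effect 0 (0 to 578), 0 (0 to 72) and 275 (0 to 1692). With TMM effective library sizes, 1 of 54 group means in CPM moved by 1 SD or more, that of Ppard in orbital controls (1.35 CPM).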
